A study of Mus musculus with 6 samples.

Results

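The SoxC and Klf genes encode transcription factors that set how far a neuron can extend an axon. The SoxC genes are Sox4, Sox11 and Sox12, which share a high mobility group DNA-binding domain and are active in young neurons. The Klf (Krüppel-like factor) genes encode zinc finger proteins that bind GC-rich and CACC motifs, and in retinal ganglion cells (RGCs) Klf6 and Klf7 are known to favor neurite growth, while Klf4, Klf9 and Klf13 are known to hold it back. These 8 genes were chosen by name, from what is known of axon growth. The rule set no threshold on a measured value, but earlier results of these data were known when it was written. All 8 were found among the 35485 genes of the tables, and all 8 passed the filter on low expression (mean RPKM above 0.3 in at least 1 group) in both groups, which left 13670 genes.

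RNA of whole retinas was sequenced 2 days after optic nerve crush (ONC; the labels write NC), in which forceps closed on the nerve for 10 seconds at 2 mm from the globe, or after a sham operation that exposed the nerve and left it intact. All mice were wild type C57BL/6 animals, 12 weeks old, and every sample of both groups was a pool of RNA from 6 retinas, with 3 ONC and 3 sham pools. ONC injures the axons of RGCs, a small minority of retinal cells, so the values below average over all cells of the retina. Fewer cells of a type and less RNA per cell cannot be told apart in such samples.

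Exon reads summed to between 17343945 and 20358008 per pool, with an intact read pair counted as 1. RPKM, which scales the exon reads of a gene by its exon length and by all reads on genes in the pool, was used for levels. Changes were tested on the exon reads by the quasi-likelihood method of edgeR. The reads were scaled by TMM, which equalizes the bulk of the genes between pools. Below, a gene passed the test when its Benjamini-Hochberg adjusted p (FDR) over all 13670 genes was under 0.1, and it was a DEG (differentially expressed gene) when its fold change was also above 1.5. RPKM divides by reads on introns as well as exons, and the share of reads on exons was 70.9 to 76.6% in sham and 78.5 to 80.4% in ONC. On that scaling the median gene had a log2 fold change of 0.13, against 0.01 with TMM, so RPKM values of ONC sit slightly high throughout. The labelled tissue was retina, and rod markers summed to 18860 to 19603 RPKM in sham and 20691 to 22086 in ONC.

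The promoters of 4 members are shown because 2 of them, Sox11 and Klf6, passed the test and the other two, Sox4 and Sox12, are the SoxC relatives with which Sox11 is compared. Each run is the 250 bases before the transcription start that the RefSeq promoter table gives for the gene on GRCm38.p6, read 5′ to 3′ on the strand of the gene. Capitals mark matches, on either strand, to the GC box GGGCGG, the CACC box CACCC, the CCAAT box CCAAT, the cyclic AMP response element core TGACG, the AP-1 site TGANTCA, the E box CACGTG or the Sox site AACAAT.
Sox11, chr12:27342719-27342968, minus strand: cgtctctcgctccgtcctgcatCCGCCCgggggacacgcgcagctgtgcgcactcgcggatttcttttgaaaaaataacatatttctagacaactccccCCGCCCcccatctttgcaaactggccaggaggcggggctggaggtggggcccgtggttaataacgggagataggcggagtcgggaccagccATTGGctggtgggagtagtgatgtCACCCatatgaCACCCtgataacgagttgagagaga
Sox4, chr13:28953700-28953949, minus strand: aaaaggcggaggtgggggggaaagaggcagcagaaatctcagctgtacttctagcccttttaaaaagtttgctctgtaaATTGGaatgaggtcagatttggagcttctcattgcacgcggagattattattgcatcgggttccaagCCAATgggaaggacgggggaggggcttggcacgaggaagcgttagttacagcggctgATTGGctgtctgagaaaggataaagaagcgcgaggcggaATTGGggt
Sox12, chr2:152398047-152398296, minus strand: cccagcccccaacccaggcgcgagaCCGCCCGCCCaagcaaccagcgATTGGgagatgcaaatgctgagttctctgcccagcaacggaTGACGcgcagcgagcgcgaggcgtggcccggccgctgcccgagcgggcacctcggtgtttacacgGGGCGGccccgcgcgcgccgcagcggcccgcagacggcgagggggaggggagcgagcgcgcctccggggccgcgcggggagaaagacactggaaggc
Klf6, chr13:5861239-5861488, plus strand: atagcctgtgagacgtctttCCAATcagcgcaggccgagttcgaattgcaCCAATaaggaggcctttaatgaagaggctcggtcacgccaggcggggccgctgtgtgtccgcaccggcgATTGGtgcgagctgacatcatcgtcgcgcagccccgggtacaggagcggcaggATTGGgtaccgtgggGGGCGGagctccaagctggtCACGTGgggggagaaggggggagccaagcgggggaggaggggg

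The 3 SoxC promoters shared the CCAAT box, and those of Sox11 and Sox12 also shared the GC box. The Sox11 window held 2 GC boxes, 2 CACC boxes and 1 CCAAT box, the Sox12 window 3 GC boxes, of which 2 overlap, with 1 CCAAT box and 1 TGACG core, and the Sox4 window 4 CCAAT boxes and none of the other motifs. The Klf6 window held 4 CCAAT boxes, 1 GC box and 1 E box. Over all 8 members, 6 windows held a GC box and 6 a CCAAT box, against 32.7% and 33.8% of 32851 RefSeq promoter windows of the same length. A CACC box, the motif that Klf proteins bind, was in 4 of the 8, against 52.0% of all windows. The TGACG core was in 4 of the 8, against 17.8%, the E box in 2, against 6.02%, and the AP-1 and Sox sites in 1 each, both in Klf9, against 6.75% and 9.42%. GC content was 58% for Sox11, 50.8% for Sox4, 74.4% for Sox12 and 64.8% for Klf6, with a median of 52.4% over all windows. The start used for Klf7 matches the end of the gene model in the tables and lies inside the longer RefSeq gene, so its window, with 1 GC box and 3 CACC boxes, is not upstream of the whole gene. These letter matches are descriptions of the sequence and not measured binding sites.

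Sox11 had by far the largest change among the 8 genes. Sox11 is needed for the birth and differentiation of RGCs and is known to act in axon growth after injury. It is a gene of 1 exon of 8451 bases at chromosome 12, 27334268 to 27342718 (GRCm38). The sham pools held 87, 58 and 51 exon reads and the ONC pools 362, 436 and 448, and the groups lay far apart. The RPKM was 0.448, 0.286 and 0.247 in sham (mean 0.327 ± 0.107, SD, n = 3) and 1.69, 2.07 and 2.04 in ONC (1.94 ± 0.212, n = 3). Sox11 rose 5.46-fold (95% interval 4.19 to 7.11), a log2 fold change of 2.45 ± 0.18 (SE), with an adjusted p of 4.59e-08 by edgeR. This was rank 10 of 13670 genes by p, and Sox11 was a DEG with each of the 3 pools of either group left out in turn.

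The other SoxC genes, Sox4 and Sox12, did not pass the test. Sox4 acts with Sox11 in the making of RGCs and is expressed in many tissues. Its exon reads were 115, 86 and 130 in sham and 148, 137 and 180 in ONC, and its RPKM was 1.69, 1.21 and 1.79 against 1.97, 1.86 and 2.34. All 3 ONC pools lay above the sham pools in RPKM, but the groups overlapped once reads were scaled by TMM. The log2 fold change of Sox4 was 0.27 ± 0.21 (SE, 95% interval -0.17 to 0.70, edgeR adjusted p = 0.551). A long non-coding RNA gene of RefSeq, Gm46405, spans the Sox4 locus, and since the sources used here do not state that strand was used in counting, reads of the pair cannot be separated.

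Sox12, the weakest transcriptional activator of the SoxC trio, was its most abundant transcript. Its exon reads were 623, 586 and 587 in sham and 764, 754 and 854 in ONC, and its RPKM was 6.11, 5.51 and 5.41 against 6.81, 6.83 and 7.42. The ONC pools lay above the sham pools both in RPKM and after TMM scaling. The log2 fold change was 0.19 ± 0.09 (SE, 95% interval -0.01 to 0.38) and the edgeR adjusted p was 0.321. With the scaling of RPKM the log2 fold change of Sox12 was 0.31 and the adjusted p 0.0792, the only alternative tried under which it passed. The intervals of Sox4 and Sox12 both end below that of Sox11 (2.07 to 2.83 on the log2 scale), and no test of the difference between genes was run.

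The make-up of the SoxC trio differed between the groups. Summed over the 3 genes, RPKM was 8.24, 7.01 and 7.44 in the sham pools (7.57 ± 0.626, SD, n = 3) and 10.5, 10.8 and 11.8 in the ONC pools (11.0 ± 0.702, n = 3). Sox11 made up 5.43, 4.08 and 3.32% of that sum in sham and 16.2, 19.3 and 17.3% in ONC, from a mean of 4.28 ± 1.07% to 17.6 ± 1.57%. Sox12 went from 75.1 ± 3.14% to 63.8 ± 1.10%, and Sox4 held 20.6 ± 3.40% in sham and 18.6 ± 1.30% in ONC. Sox12 was thus still the main SoxC transcript after ONC, and the share of Sox4 overlapped between the groups. Shares and sums are descriptions over the trio and carry no test. The sums are on the RPKM scale, which sits slightly high in ONC, so part of their difference comes from that scale. The Sox4 level is less certain than the others, because the gene model of the tables covers 2967 bases while the RefSeq gene spans 4781.

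**Figure D1:**
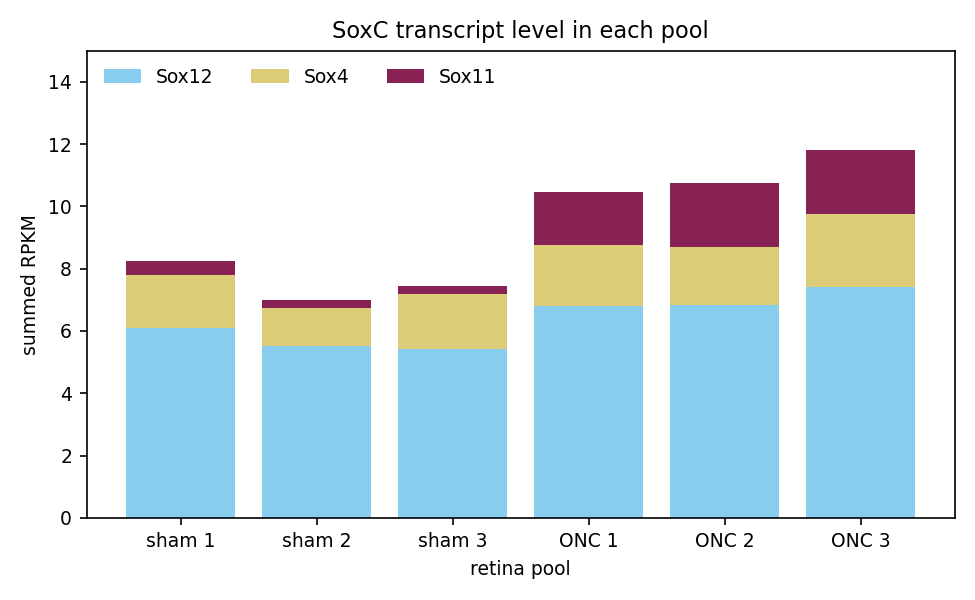
Summed RPKM (vertical axis) of Sox12, Sox4 and Sox11 in each of the 3 sham and 3 ONC retina pools (horizontal axis), as stacked bars with 1 colour per gene. The Sox11 segment is a thin cap of 3.32 to 5.43% in sham and 16.2 to 19.3% in ONC, and the whole bar is between 7.01 and 8.24 in sham and between 10.5 and 11.8 in ONC.

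Among the 2 growth-promoting Klf genes, Klf6 passed the test and Klf7 did not. Klf6 is known to be needed for axon regrowth in fish and to respond early to injury signals. Its exon reads were 498, 544 and 431 in sham and 710, 752 and 691 in ONC, and its RPKM was 5.14, 5.39 and 4.18 (4.90 ± 0.639, SD, n = 3) against 6.65, 7.17 and 6.32 (6.71 ± 0.428, n = 3). The groups did not overlap in RPKM or after TMM scaling. Klf6 rose 1.26-fold (95% interval 1.09 to 1.46), a log2 fold change of 0.34 ± 0.10 (SE), with an edgeR adjusted p of 0.0716, and it stayed under the 1.5-fold limit of a DEG. The call rested on the full set of pools. The adjusted p was 0.139 without sham 1, 0.109 without sham 2, 0.293 without sham 3, 0.255 without ONC 2 and 0.128 without ONC 3, and Klf6 passed only without ONC 1, at 0.0529. Its log2 fold change stayed between 0.27 and 0.39 in these fits. Reads across exon junctions were 55, 64 and 44 in sham and 79, 57 and 79 in ONC, with 1 ONC pool inside the sham range.

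Klf7, which is known to promote axon growth in the cortex and the retina, had few reads on its exons. They numbered 67, 53 and 40 in sham and 47, 82 and 72 in ONC, and the RPKM was 2.17, 1.65 and 1.22 against 1.38, 2.45 and 2.07. The groups overlapped, and the log2 fold change was 0.11 ± 0.31 (SE, 95% interval -0.53 to 0.76, edgeR adjusted p = 0.894). An ONC level anywhere from 0.692 to 1.69 times the sham level lies within that interval. The gene model of the tables holds 1344 exon bases in 4 exons, at chromosome 1, 64035663 to 64121389, inside a RefSeq gene that spans 64029448 to 64122345. The level of Klf7 rests on that short model.

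The 3 growth-restricting Klf genes did not pass the test. Klf9, which responds to thyroid hormone and glucocorticoids and rises as neurons mature, was the most abundant of the 8. Its exon reads were 1720, 1864 and 1871 in sham and 2234, 2069 and 2223 in ONC, and its RPKM was 22.9, 23.8 and 23.4 against 27.1, 25.5 and 26.3. All ONC pools were above the sham pools in RPKM, but the groups overlapped after TMM scaling. The log2 fold change of Klf9 was 0.04 ± 0.07 (SE, 95% interval -0.10 to 0.19, edgeR adjusted p = 0.800), an interval that leaves room for a rise of at most 1.14-fold or a fall to 0.934 of the sham level.

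Klf13, a close relative of Klf9, varied most among the sham pools of the growth-restricting genes. Its RPKM was 2.73, 3.98 and 2.20 in sham and 3.11, 2.92 and 3.32 in ONC, with every ONC value inside the sham range. The log2 fold change was -0.04 ± 0.15 (SE, 95% interval -0.35 to 0.26, edgeR adjusted p = 0.913). Klf4, known as a stem cell factor and as a strong brake on neurite growth, was measured with 31, 20 and 30 exon reads in sham and 34, 30 and 27 in ONC. Its RPKM was 0.443, 0.274 and 0.403 against 0.441, 0.396 and 0.342, and the groups overlapped. The log2 fold change of Klf4 was -0.05 ± 0.42 (SE, 95% interval -0.92 to 0.82, edgeR adjusted p = 0.966), an interval that runs from 0.529 to 1.76 times the sham level, and a change within it was not detectable at this depth.

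**Figure D2:**
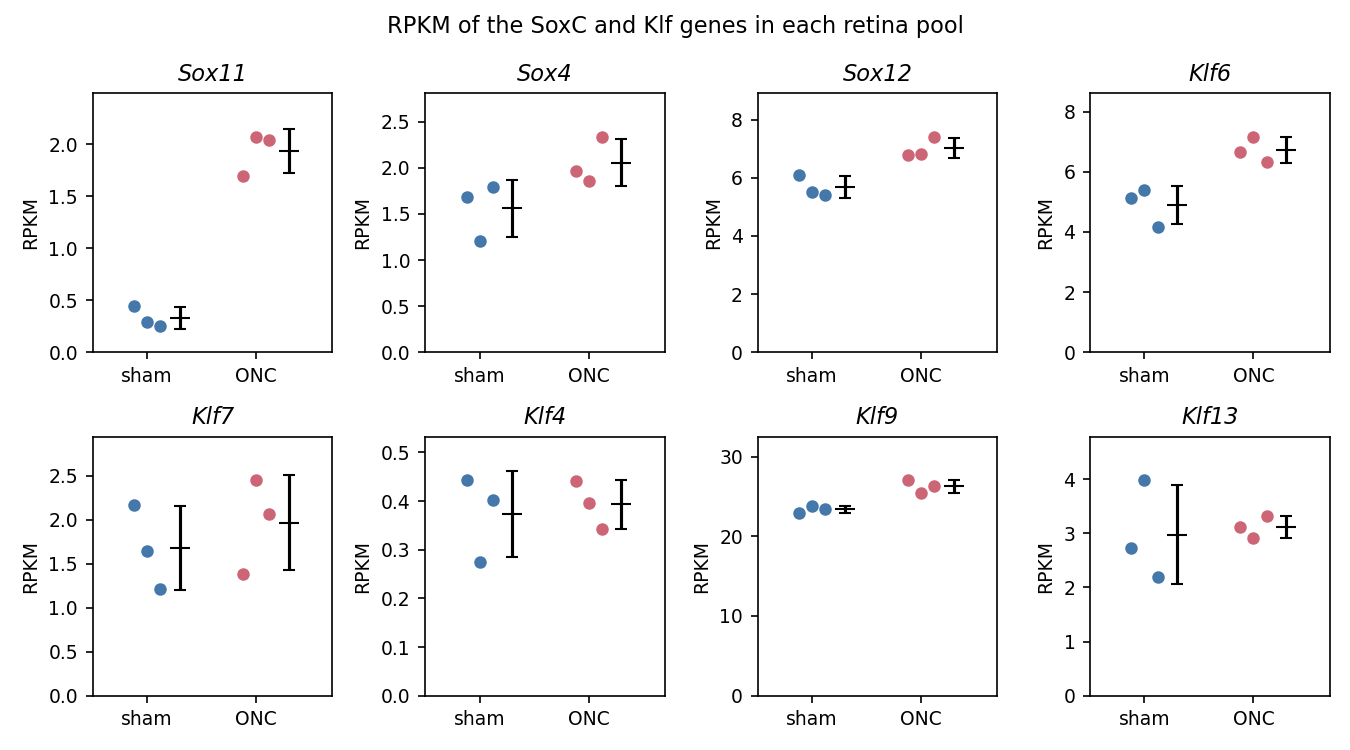
RPKM (vertical axis, its own scale from 0 in each panel) of the 8 genes in the 3 sham and 3 ONC retina pools, with 1 point per pool and the mean ± SD beside the points. Sox11 goes from at most 0.448 in sham to at least 1.69 in ONC, while the points of Klf4, Klf7 and Klf13 overlap between the groups.

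The balance between the growth-promoting and the growth-restricting Klf genes overlapped between the groups. The RPKM of Klf6 and Klf7 divided by that of Klf4, Klf9 and Klf13 was 0.280, 0.250 and 0.207 in sham and 0.263, 0.334 and 0.280 in ONC (0.246 ± 0.0365 and 0.292 ± 0.0373, SD, n = 3). Klf9 alone made up 70.4% of the Klf sum in sham and 68.3% in ONC, so the ratio follows Klf9 in its lower part and Klf6 in its upper part. This ratio is a description over members and carries no test.

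In all, 2 of the 8 members passed the test (Sox11 and Klf6), both higher in ONC, and 1 was a DEG (Sox11). Both also had an unadjusted p under 0.05, as did 16.7% of all genes. Over all genes tested, 6.09% passed, 2.38% with a higher and 3.72% with a lower level in ONC, and 1.66% were DEGs, 0.827% with a higher level. Log2 fold changes were above 0 in 6 of the 8, with a median of 0.15 against 0.01 over all genes. In RPKM the ONC pools all lay above the sham pools for 5 members (Sox4, Sox11, Sox12, Klf6 and Klf9), against 25.4% of all genes. After TMM scaling this held for 3 members (Sox11, Sox12 and Klf6), against 11.0% of all genes.

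**Figure D3:**
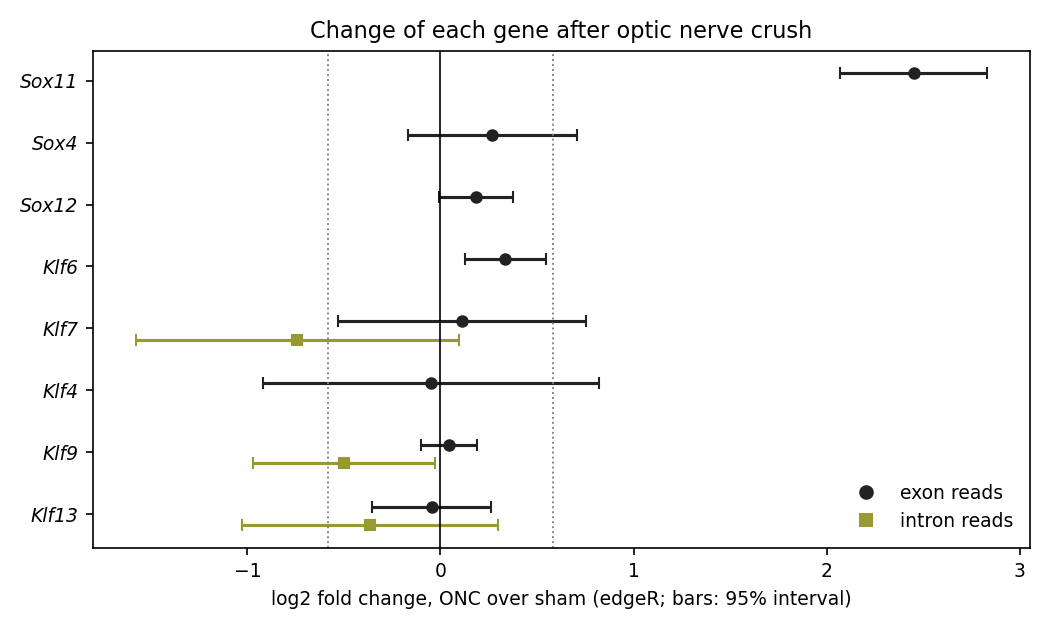
Log2 fold change of ONC over sham (horizontal axis) for the 8 genes from exon reads (circles) and, for 3 Klf genes, from intron reads (squares), with 95% intervals from edgeR and dotted lines at a 1.5-fold change. Sox11 lies apart at 2.45, Klf6 is the only other gene whose exon interval lies wholly above 0, and the intron values of Klf7, Klf9 and Klf13 lie below 0.

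The order of the levels hardly changed apart from Sox11. In sham the order by mean RPKM was Klf9, Sox12, Klf6, Klf13, Klf7, Sox4, Klf4 and Sox11, with Klf7 overlapping Sox4 and Klf4 overlapping Sox11. In ONC it was Klf9, Sox12, Klf6, Klf13, Sox4, Klf7, Sox11 and Klf4, with Sox12 overlapping Klf6 and the levels of Sox4, Klf7 and Sox11 overlapping each other. Sox11 thus went from the lowest level to that of Sox4 and Klf7, and Klf4 became the lowest. The mean level of Klf9 in ONC, 26.3 ± 0.787 RPKM (SD, n = 3), was still far above that of every other member.

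Reads on introns gave a second readout for the Klf genes. The SoxC genes have 1 exon each and no intron reads, and Klf4 and Klf6 had too few to test, with 13 at most in any pool. Klf9 had 189, 212 and 297 intron reads in sham and 153, 116 and 212 in ONC, with a log2 fold change of -0.50 ± 0.22 (SE), an unadjusted p of 0.0392 and an edgeR adjusted p of 0.259. Klf7 had 53, 71 and 179 in sham and 63, 36 and 74 in ONC (log2 fold change -0.74 ± 0.39, edgeR adjusted p = 0.351), and Klf13 had 49, 64 and 102 in sham and 40, 57 and 66 in ONC (-0.36 ± 0.31, adjusted p = 0.578). In all 3 genes sham 3 had the most intron reads before scaling. It was also the pool with the lowest share of reads on exons, 70.9%, and with the most intron reads in total, 7131984. The fits scale the intron reads of each pool by such totals and TMM, and the part of sham 3 in these values was not tested. Without sham 3 the log2 fold changes were -0.34 for Klf9, -0.11 for Klf7 and -0.08 for Klf13. By edgeR 0 of the 3 members passed on intron reads, 1 had an unadjusted p under 0.05 and 0 passed with DESeq2, while 2.75% of 13821 genes passed by edgeR and 17.3% had such an unadjusted p. RefSeq genes lie within or across the loci of Klf7 (Gm13748 and Gm35880) and Klf13 (Gm27252 and E030018B13Rik), and reads from them cannot be separated without strand.

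The relatives of the members in the same gene families did not pass the test. Of 16 other Sox genes 9 were tested, and 0 passed by edgeR, 0 had an unadjusted p under 0.05, and 0 passed with DESeq2 or limma. Over all genes 6.09% passed by edgeR and 16.7% had such an unadjusted p. Their median log2 fold change was -0.12. Sox8, a glial factor and the most abundant of them, had 5.20 ± 0.0788 RPKM in sham and 5.45 ± 0.233 in ONC (SD, n = 3; log2 fold change -0.05, edgeR adjusted p = 0.857), and Sox2, a progenitor and glial factor, had 3.18 ± 0.217 and 2.90 ± 0.746 (-0.25, adjusted p = 0.547). For Sox2 the tables list 0 unique reads, so its level rests on reads that were not placed uniquely.

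Of 21 other Klf and Sp genes 14 were tested, and 0 passed by edgeR, against 6.09% of all genes, and 0 with DESeq2 or limma. Only 1 (Sp6) had an unadjusted p under 0.05, against 16.7% of all genes. The median log2 fold change was -0.02. The most abundant were Sp4, with 23.6 ± 1.60 RPKM in sham and 23.3 ± 2.55 in ONC (SD, n = 3; -0.13, edgeR adjusted p = 0.398), and Sp3, with 17.8 ± 0.972 and 18.3 ± 0.768 (-0.08, adjusted p = 0.526). Sp proteins bind GC boxes and are made in most cells. Sp4 and Sp3 were, with Klf9, the most abundant transcripts of these families.

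**Figure D4:**
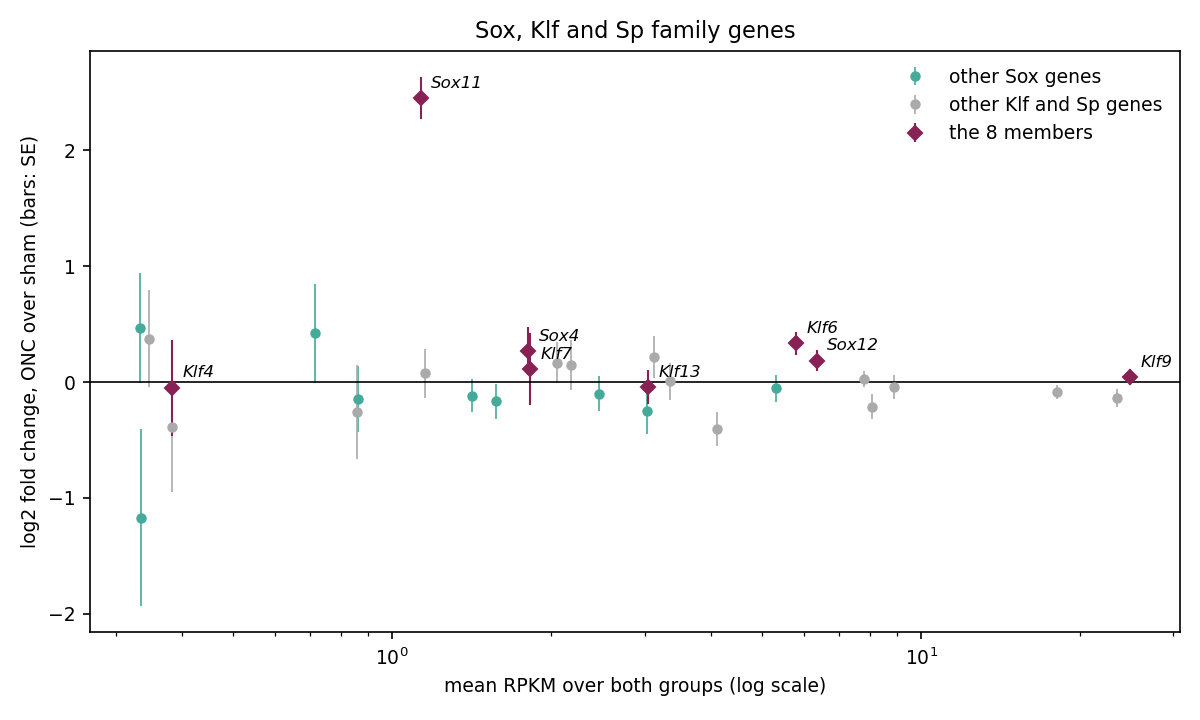
Log2 fold change of ONC over sham (vertical axis, bars are SE) against the mean RPKM over both groups (horizontal axis, log scale) for the 8 members (diamonds), 9 other Sox genes and 14 other Klf and Sp genes (circles). Sox11 stands alone near 2.45, and the genes of low level have wide bars.

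Among other transcription factors and brakes of axon regrowth, the injury-response factors Atf3 and Jun rose beside Sox11. Of 19 tested, 3 rose, against 2.38% of all genes, and the median log2 fold change was 0.12. Atf3, an injury-induced factor, had 4.93, 2.22 and 2.85 RPKM in sham and 18.3, 17.4 and 17.7 in ONC (log2 fold change 2.30 ± 0.18, SE, edgeR adjusted p = 7.95e-08), and Jun, its partner in the AP-1 family, went from 9.21 ± 0.931 to 18.4 ± 0.516 RPKM (0.88 ± 0.08, adjusted p = 8.12e-07). The log2 fold changes of Sox11 and Atf3 were of like size, and the level of Atf3 in ONC was higher than that of Sox11. Stat3, which carries cytokine signals, rose less, from 10.8 ± 1.47 to 14.6 ± 0.810 RPKM (0.32 ± 0.08, adjusted p = 0.0258).

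Genes linked to SoxC factors in neurons did not move in 1 direction. Of 14 tested, 1 rose and 4 fell, against 2.38% and 3.72% of all genes, with a median log2 fold change of -0.08. Gap43, a growth cone protein, rose from 19.0 ± 1.68 to 29.1 ± 2.51 RPKM (0.49 ± 0.10, SE, edgeR adjusted p = 0.00585). Pou4f2, an RGC transcription factor, had 2.65, 3.85 and 3.28 RPKM in sham and 1.30, 1.69 and 1.08 in ONC and fell by 1.39 ± 0.19 on the log2 scale (adjusted p = 0.000103). Its relative Pou4f1 fell by 0.75 ± 0.11 (adjusted p = 0.000289), and Tubb3, the tubulin of neurons, fell by 0.75 ± 0.07 (adjusted p = 2.36e-06). The fourth was Nrcam, a neuronal adhesion molecule, which fell by 0.32 ± 0.06 (adjusted p = 0.00403). Pou4f1, Pou4f2 and Tubb3 are also RGC markers, so Sox11 rose in the same pools in which these RGC transcripts fell.

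Genes linked to Klf factors were also mixed. Of 13 tested, 3 rose and 2 fell, against 2.38% and 3.72% of all genes, with a median log2 fold change of 0.05. Cdkn1a, the cell cycle inhibitor p21, had 1.63, 1.22 and 1.39 RPKM in sham and 5.27, 6.57 and 5.25 in ONC (log2 fold change 1.89 ± 0.18, SE, edgeR adjusted p = 1.47e-06). The other two that rose, Gap43 and Stat3, are also on the lists above. Pde4d, which breaks down cyclic AMP, fell by 0.57 ± 0.11 on the log2 scale (adjusted p = 0.00456), and Mapk10, a neuronal JNK kinase, fell by 0.35 ± 0.06 (adjusted p = 0.00199).

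Genes that respond to or carry glucocorticoid and thyroid hormone signals, the inputs known for Klf9, showed small changes. Of 14 tested, 1 rose and 2 fell, against 2.38% and 3.72% of all genes, with a median log2 fold change of 0.03. Sgk1, a kinase induced by glucocorticoids, rose from 84.0 ± 6.92 to 104 ± 1.21 RPKM (0.19 ± 0.05, SE, edgeR adjusted p = 0.0506), Dio2, which activates thyroid hormone, fell by 0.39 ± 0.10 on the log2 scale (adjusted p = 0.0371) and Thra, a thyroid hormone receptor, fell by 0.19 ± 0.06 (adjusted p = 0.0935). The number that passed went from 3 to 1 with limma or with a replicate block, and to 0 without ONC 3 or without sham 2.

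The genes whose pattern over the 6 pools was most like that of Sox11, by Pearson's r of log2 TMM-scaled reads among 11975 genes, were Trmt10b (r = 0.997), Psat1 (r = 0.996) and Asns (r = 0.996). With 2 groups of 3 pools such an r mainly reflects the step between the groups, and it is given without a test. Trmt10b, a tRNA methyltransferase, had 4.49 ± 0.371 RPKM in sham and 5.96 ± 0.267 in ONC (log2 fold change 0.29 ± 0.13, SE, edgeR adjusted p = 0.271). Psat1 and Asns, enzymes of serine and asparagine synthesis, rose from 10.6 ± 1.01 to 19.2 ± 1.12 RPKM (0.74 ± 0.08, adjusted p = 8.66e-06) and from 13.3 ± 1.44 to 27.6 ± 2.14 RPKM (0.93 ± 0.09, adjusted p = 1.08e-06). Each of the 3 had a smaller fold change than Sox11.

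RGC markers were lower in ONC, some microglia and some rod markers were higher, and markers of most other cell types did not pass the test. Over all genes 2.38% rose and 3.72% fell. RGC markers summed to 507 to 533 RPKM in sham and 379 to 394 in ONC, and of 12 tested 10 fell and 1 rose. Their most abundant genes, Nefl and Sncg, fell by 0.53 ± 0.07 and by 0.95 ± 0.07 on the log2 scale (SE, edgeR adjusted p = 4.08e-05 and 2.89e-08). Microglia and macrophage markers summed to 18.4 to 20.8 in sham and 31.6 to 34.5 in ONC, and 4 of 9 rose, among them C1qb (0.81 ± 0.17, adjusted p = 0.00632) and C1qa (0.59 ± 0.19, adjusted p = 0.0931, a call kept in 11 of 17 alternatives). C1qc also rose (0.57 ± 0.18, edgeR adjusted p = 0.0931), and like C1qa and C1qb it encodes a part of complement C1q. Log2 fold changes were above 0 in 8 of 9. Cx3cr1 (0.49 ± 0.21, edgeR adjusted p = 0.240), Csf1r (0.41 ± 0.14, 0.134) and Aif1 (-0.32 ± 0.64, 0.845) did not pass. Of 6 rod markers tested 3 rose. They were Sag (0.39 ± 0.05, adjusted p = 2.14e-05), Nr2e3 (0.37 ± 0.06, adjusted p = 0.00171) and Pde6b (0.18 ± 0.05, adjusted p = 0.0340, a call kept in 11 of 17 alternatives), while Gnat1, the rod transducin subunit, had a log2 fold change of -0.03 (adjusted p = 0.820), which turned to 0.09 with the scaling of RPKM. No gene of these 3 lists was at 0 in all pools. Their part in the change of Sox11 and Klf6 was not tested.

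Lens and ocular surface markers summed to between 6.00 and 44.7 in sham and between 44.3 and 56.6 in ONC. Against 2.38% of all genes, 1 of the 3 tested rose. This was Cryaa, a lens crystallin and a DEG (log2 fold change 1.32 ± 0.36, SE, edgeR adjusted p = 0.0469), a call kept in 12 of 17 alternatives and lost with DESeq2 (adjusted p = 0.415), with total gene reads (0.108), and without ONC 3 (0.124), sham 2 (0.236) or sham 3 (0.243). Crybb2, the most abundant in sham, had a log2 fold change of 1.24 ± 0.47 (adjusted p = 0.174). Sham 1 accounted for the top of the sham range, with 19.6 RPKM of Cryaa against 3.05 and 5.11 in sham 2 and sham 3, and it was also the sham pool with the most Sox11 reads. Without sham 1 the log2 fold change was 2.71 for Sox11 and 2.44 for Cryaa. The part of lens RNA in the change of Sox11 was not tested. Of 6 amacrine cell and 5 pigment epithelium markers 0 passed by edgeR or DESeq2, and 0 had an unadjusted p under 0.05. Among all genes tested, 6.09% passed by edgeR and 16.7% had such an unadjusted p. Of the 8 Müller glia, 4 astrocyte and 8 vascular endothelium markers tested, 0 passed by edgeR, with 2, 1 and 0 at an unadjusted p under 0.05 and 1, 0 and 0 passing with DESeq2. Their summed levels were 1133 to 1264 against 1277 to 1288 RPKM, 12.2 to 14.6 against 15.3 to 19.1 RPKM, and 40.3 to 45.7 against 40.9 to 49.3 RPKM. The sums of Müller glia and astrocytes did not overlap between the groups in RPKM, a scale that sits slightly high in ONC. On that scale the ONC pools all lay above the sham pools for 25.4% of all genes. With TMM the median log2 fold change was 0.03 for the Müller glia markers and 0.17 for the astrocyte markers.

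**Figure D5:**
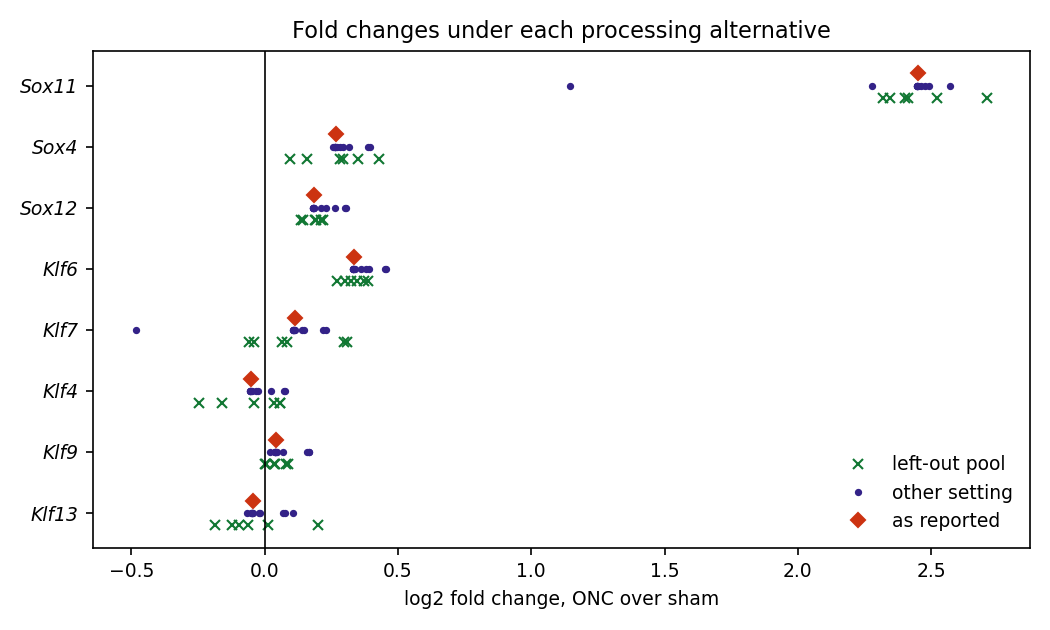
Log2 fold change of ONC over sham (horizontal axis) of the 8 genes as reported (diamonds), with 1 pool left out (crosses) and under the other settings tried (dots). Sox11 stays between 1.15 and 2.71 and Klf6 between 0.27 and 0.45, while the points of Klf4, Klf7 and Klf13 lie on both sides of 0.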

How the data were processed

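RNA of 6 retina pools (3 ONC, 3 sham) was sequenced as paired reads of 100 bases from an Illumina TruSeq RNA library, and the condition came from the labels. The authors mapped reads with CLC Genomics Workbench 6.0.1, with up to 2 mismatches, and deposited, for each pool, unnormalized read counts of every gene (exons alone, and exons with introns) and RPKM values. The paper and the submitters' processing notes name mm9, but positions in the tables match GRCm38 in the RefSeq annotation and are given so. Intron reads were computed as gene reads minus exon reads, with a mean of at least 10 in 1 group (13821 genes).

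The tests used edgeR 4.0.16 (TMM, glmQLFit, glmQLFTest) in R 4.3.3, and intervals are the log2 fold change ± the t quantile times its standard error. The edgeR fits of exon and intron reads were tested on simulated counts, and the alternatives were not. The simulation used the same spread for both kinds of reads, near that of exon reads. The estimated common coefficient of variation between pools was 9.17% for exon reads and 23.7% for intron reads, so the simulation does not cover the intron fits at their own spread. DESeq2 1.42.0 and limma 3.58.1 were alternatives, the latter on log2(RPKM + 0.1) and log2(RPKM + 1). For all DEGs among the members the 3 genes with the highest r (mean RPKM above 1, prior count 0.5) are named, from each gene list up to 4 genes that passed with the largest fold change, or else the 2 of highest level, and from marker lists the 2 of highest level in sham. Nrcam, Stat3 and Gap43 in the Klf list, Sp6, C1qc, Cx3cr1, Csf1r, Aif1 and the 3 rod markers go with counts given in the text. The members and lists were chosen with earlier results of these data known. The p-values measure the spread between pools. Pools with the same number were treated as unpaired. Results for a gene of the axon regrowth list and a marker gene are not reported here.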

Additional observations from a re-analysis of the deposited data

How the results depend on the processing

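Sox11 was a DEG in all 17 alternatives, with a log2 fold change of 1.15 on log2(RPKM + 1), a scale that shrinks low levels, and of 2.28 to 2.71 otherwise. Klf6 passed in 12 of 17, and was lost in 5 of the 6 fits that left out 1 pool, so that the members passing ranged from 1 to 2 there. Depth limits Klf4, with at most 34 exon reads per pool. Directions turned for Klf4 (0.0718 and 0.0219 with limma on log2(RPKM + 0.1) and log2(RPKM + 1), 0.0747 with the scaling of RPKM, and -0.246 to 0.0570 with 1 pool left out), for Klf13 (0.106, 0.0750 and 0.0685, and -0.19 to 0.20), for Sox8 (0.0668, 0.0574 and 0.0687, and -0.109 to 0.00323), for Sp3 (0.0371, 0.0353 and 0.0369) and for Gnat1 (0.0897, 0.0897 and 0.0910, 0.0173 with total gene reads, and -0.0946 to 0.00168 with 1 pool left out). Klf7 turned to -0.48 with total gene reads, which include its introns, and lay between -0.0602 and 0.310 with 1 pool left out. The RPKM-based settings share the RPKM divisor, and the cause of the other turns was not tested.

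DEGs among all genes numbered 227, with 350 under the scaling of RPKM, 342 with total gene reads and 153 to 353 with 1 pool left out, the most without ONC 1. Of the other Klf and Sp genes 1 passed with no RPKM filter and 0 to 2 with 1 pool left out, the most without ONC 1. Of the transcription factors and brakes 2 to 6 passed with 1 pool left out, the fewest without ONC 3 or sham 3. Of the hormone-responsive genes 1 passed with either limma scale or the replicate block and 0 to 5 with 1 pool left out.

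Replicate numbers are shared by the groups, but deviations of same-numbered pools correlated at -0.058, -0.025 and 0.0072, so they were not taken as pairs. With the replicate block there were 222 DEGs, 2 members passed, and Klf6 had an adjusted p of 0.0875 (log2 fold change 0.34).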
